A study of Homo sapiens with 8 samples.

Results

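Amino acid transporters were described in human MDA-MB-231 cells, an established line from a metastatic breast cancer, with and without TGFβ. The genes were those that a probe set of the array names alone and whose symbol puts them in the solute carrier families SLC1, SLC3, SLC6, SLC7, SLC36, SLC38 or SLC43. This gave 56 of the 19775 genes that a probe set names alone, with 138 probe sets among them, and the probe set with the highest mean signal stood for its gene. The cells of both groups stably carried a retroviral hairpin against GFP, which serves as the control for a knockdown, and were kept without serum for 24 h. The untreated group comprised 4 arrays, and the treated group comprised 4 arrays of cells given TGFβ (5 ug/ml per the labels) for 3 h. Cells depleted of mutant p53, which the study's design of 16 samples also holds, were not analysed here. The replicates carry the letters A to D in both groups, and the labels call them biological replicates without saying whether cultures were separate. A p-value here weighs a difference against the spread of these 8 arrays only, and that spread may be technical.

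Amino acids cross membranes on carriers that differ in the substrates they accept and in what drives them. Exchangers such as the SLC7 light chains swap one amino acid for another and reach the cell surface bound by a disulfide to a heavy chain of the SLC3 family, whereas sodium-coupled carriers of the SLC1, SLC6 and SLC38 families load the cell with the amino acids that the exchangers trade. In cancer cells SLC7A5, SLC1A5 and SLC7A11 are the carriers best known for the uptake of leucine, glutamine and cystine. Several transporter genes are induced by the transcription factor ATF4 when amino acids run short, and the amino acids that arrive are sensed by the kinase complex mTORC1.

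All values are RMA signals on the log2 scale, 1 per probe set and array, and a fold change is treated minus untreated on that scale. A signal depends on the probes that make it, so the levels of single genes are compared between arrays and not with each other. The mean signals below sort genes and marker lists only roughly, since they come from different probes. RMA gives no detection call. Of the 56 genes 37 lay in the upper 60% of mean signals over all genes (5.03 or more) and 19 below, where a signal may be background. The 7 measured markers of MDA-MB-231 cells, among them VIM and CD44, all lay in the upper 60%, and per array their mean level was between 10.97 and 11.44. The corresponding means were 5.50 to 5.70 for luminal breast markers, 4.84 to 5.25 for leukocyte, 5.01 to 5.23 for endothelial and 4.39 to 4.65 for fibroblast markers. Some of these markers lay in the upper 60% too, 4 of 7 luminal, 1 of 4 leukocyte, 2 of 4 endothelial and 1 of 4 fibroblast ones. The highest gene means on these lists were 9.51, 6.50, 7.37 and 5.74, in that order. Of the 7 luminal markers 2 differed between the groups in both fits, CDH1 as higher (0.90, adjusted p = 0.00579) and ERBB3 as lower (-0.96, adjusted p = 0.0206). With the mean of their probe sets these were 0.48 (adjusted p = 0.149) and -0.38 (adjusted p = 0.28), so both calls were lost, and ERBB3 passed in 5 of 8 fits without 1 array. With the replicate letter as a block, PLAU of the MDA-MB-231 list (1.05, adjusted p = 0.000398) and PECAM1 of the endothelial list (-0.43, adjusted p = 0.0155) passed too. Neither of these 2 passed without the block. In the fits without the block and without 1 array, PLAU passed in 1 of 8 and PECAM1 in 0 of 8. Without single letters the PLAU call held in 4 of 4 block fits and the PECAM1 call in 1 of 4. The part of these markers in the transporter differences was not tested. The TGFβ-induced genes SMAD7 (1.81 ± 0.21 SE, adjusted p = 0.0039) and JUNB (1.64 ± 0.11 SE, adjusted p = 0.000168) rose, and SKIL had 1.41 ± 0.35 SE (adjusted p = 0.157; 0.00205 with the letter as a block). Treated replicate A stood apart in its control probe sets. The 3-prime probe set of ACTB exceeded the 5-prime one by 1.68 on that array and by 0.63 to 0.89 on the others, and for GAPDH the excess was 0.54 against 0.06 to 0.14. Its part in the differences below was not tested. Values without that array are given for the transporter genes that passed and for SLC7A6, SLC7A1, SLC1A1, SLC7A2 and SLC6A9.

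Most transporter genes differed little between the groups, as did most of all genes. SLC7A5, a carrier of large neutral amino acids, was the gene that passed as higher, and this call held in 1 of 8 fits without 1 array. By limma with Benjamini-Hochberg adjustment over all genes, 1 of 56 passed an adjusted p of 0.05 (1.79%), where 0.576% of all genes did. In this test 0.354% of all genes passed as higher and 0.223% as lower. Arrays of the same letter deviated together from their group means, though for letters C and D the 2 letters also deviated with each other, about as strongly (correlation 0.33 and 0.31 between letters, 0.34 and 0.30 within). When the letter was fitted as a block, 2 of 56 transporter genes passed, SLC7A5 as higher and SLC38A4, a sodium-coupled carrier, as lower. These 2 are 3.57% of the transporters, and 3.57% of all genes passed in that fit (1.39% higher and 2.18% lower). The median log2 fold change was 0.03 for the transporters and 0.01 for all genes, and the range was -0.64 to 0.70. The difference was under 0.1 in size for 32 genes (57.1%; 52.9% of all genes) and under 0.2 for 45 (80.4%; 81.8% of all genes). Of the 56 genes 43 had a 95% interval within -0.5 and 0.5, and none had one that reached past 1 in either direction. The groups did not overlap in 5 genes, SLC7A5, SLC7A6, SLC7A1, SLC6A18 and SLC38A4, where 5.12% of all genes had no overlap. An unadjusted p under 0.05 was found for 6 genes (10.7%; 8.14% of all genes). All 4 same-letter pairs differed in 1 direction for 15 genes (26.8%; 22.5% of all genes).

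**Figure D1:**
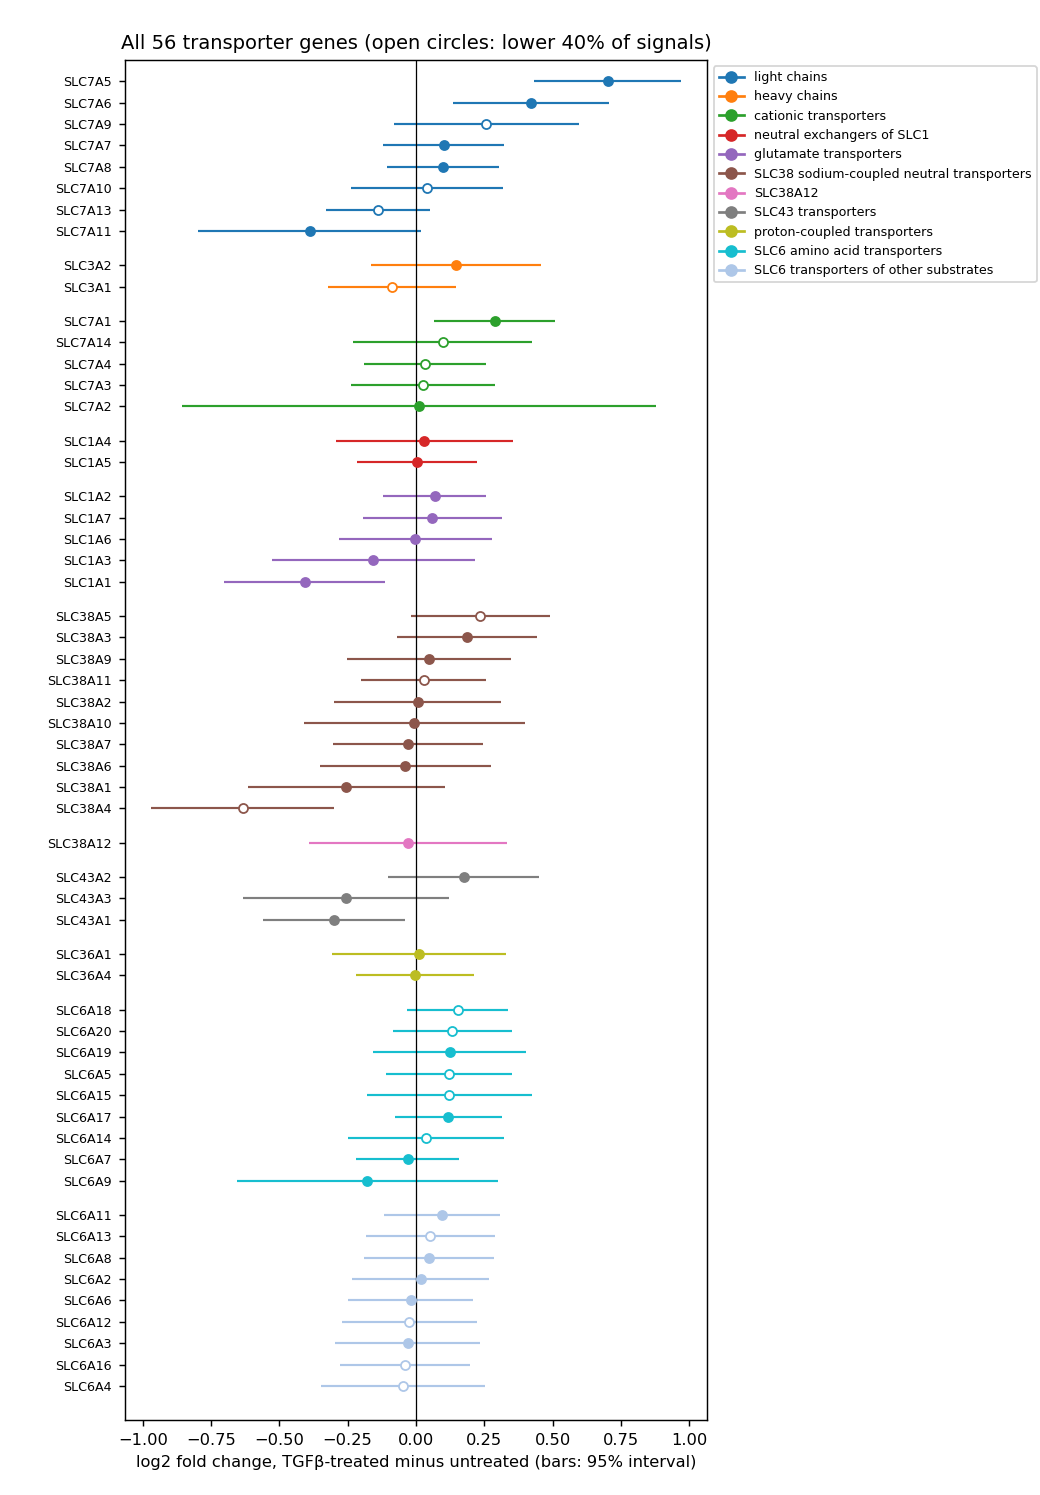
Log2 fold change (x axis, treated minus untreated) of each of the 56 transporter genes, grouped by role and ordered within a group, with 95% intervals from limma as bars and open circles for genes in the lower 40% of signals. SLC7A5 lies farthest to the right at 0.70 and SLC38A4 farthest to the left at -0.64, and most intervals cross 0.

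SLC7A5 (Entrez 8140) encodes LAT1, the light chain that imports leucine and other large neutral amino acids. Its signal was 9.75, 10.03, 9.84 and 10.07 on the untreated arrays A to D and 10.91, 10.55, 10.56 and 10.46 on the treated arrays. Every treated array was above every untreated one, and treated A was the highest. The means were 9.92 ± 0.15 and 10.62 ± 0.20 (SD over the 4 arrays of a group), so the signal rose 1.63-fold (log2 fold change 0.70 ± 0.12 SE, 95% interval 0.43 to 0.97, limma adjusted p = 0.0304; 0.0107 with the block). The same-letter differences were 1.16, 0.53, 0.73 and 0.39 for A to D, so pair A differed most. Without treated replicate A, the array with the 3-prime excess, the difference was 0.61 and passed (adjusted p = 0.0337). The call was lost without any other single array, with adjusted p of 0.0792, 0.0545, 0.144 and 0.076 without untreated A, B, C and D, and 0.0633, 0.0763 and 0.0734 without treated B, C and D. The difference itself stayed between 0.61 and 0.75 in these fits, which ignore the letters. With the block it passed without letters A, B or D and not without letter C (adjusted p = 0.0745). SLC7A5 has a single probe set here, of a type that can match several transcripts, of the same or of different genes, so no other probe set bears on it. This probe set had an adjusted p of 0.057 in the limma fit over all probe sets (0.0304 with the block). Without the block the call was thus lost when all probe sets were tested. In RNA from a whole culture, a change in the number of cells that hold the transcript and a change in its amount per cell cannot be told apart, here and for the genes below.

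**Figure D2:**
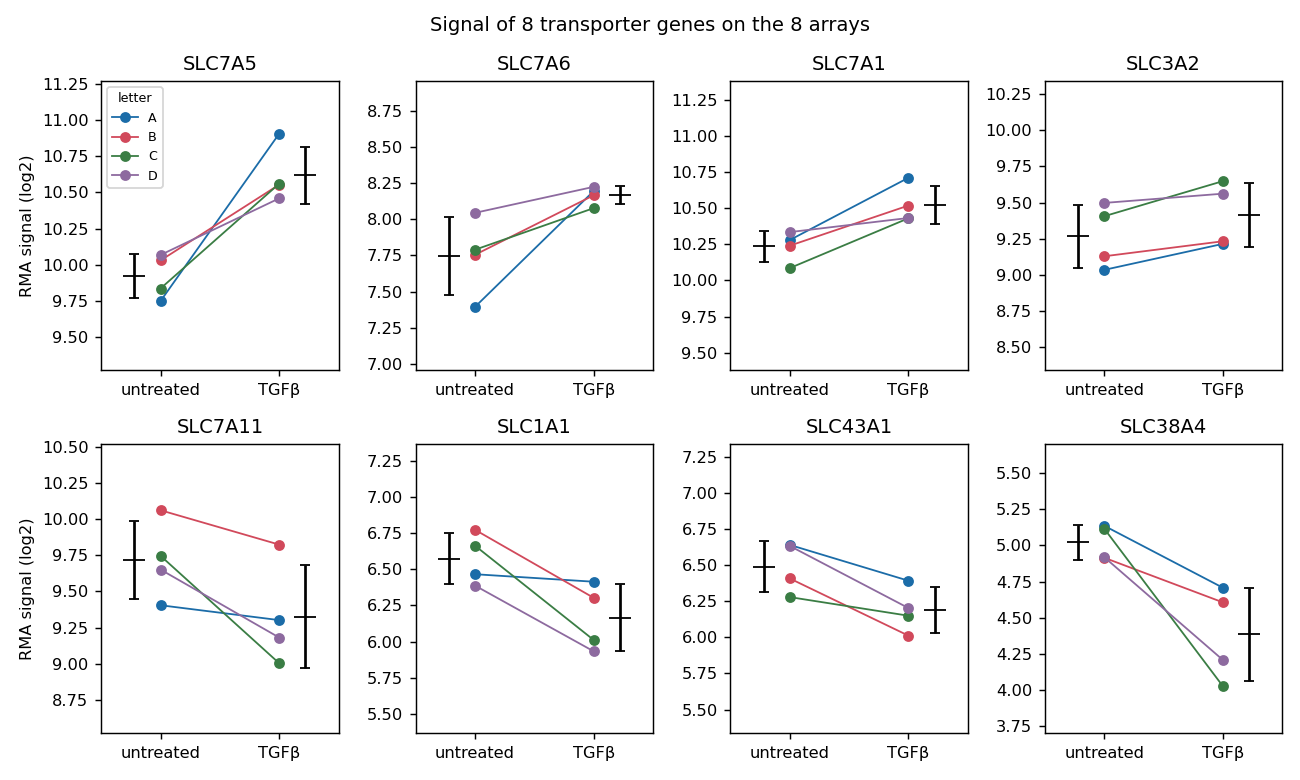
RMA signal (y axis, log2; every panel spans 2 units) of 8 transporter genes on the untreated and TGFβ-treated arrays, with lines joining arrays of the same letter and black marks for the mean ± SD (n = 4). The groups are separate for SLC7A5, SLC7A6, SLC7A1 and SLC38A4 and overlap for SLC3A2, SLC7A11, SLC1A1 and SLC43A1.

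The stretch of 250 bases just before the start of SLC7A5 is shown because this is the gene that passed in both fits. It lies at chr16:87869508-87869757 (GRCh38.p14, minus strand, RefSeq) and is 79.6% G and C, where the median over all RefSeq promoter windows is 58.0%.
SLC7A5: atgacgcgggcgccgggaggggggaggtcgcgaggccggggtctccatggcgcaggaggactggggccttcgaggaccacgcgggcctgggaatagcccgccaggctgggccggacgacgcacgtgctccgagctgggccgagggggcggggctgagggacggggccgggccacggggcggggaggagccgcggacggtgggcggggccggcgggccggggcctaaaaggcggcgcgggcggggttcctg
Its window, which runs to 50 bases after the start, holds none of the 3 motifs searched on both strands. The first was TGATGNAA, the core of the element bound by ATF4 with C/EBP proteins. The second was TGANTCA, the AP-1 site with any base allowed in its middle. The third was GTCTAGAC, a palindrome bound by SMAD3 and SMAD4.

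TGATGNAA was found in 1 window each of 6 transporter genes. The 30 bases around each match are shown, 5′ to 3′ on the gene's strand with the match in capitals, because 5 of these 6 genes are among those described in full below. In SLC1A4 and SLC3A2 the motif reads on the opposite strand.
SLC1A4: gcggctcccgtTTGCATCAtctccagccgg
SLC1A5: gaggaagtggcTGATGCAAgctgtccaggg
SLC3A2: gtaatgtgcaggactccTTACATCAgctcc
SLC7A1: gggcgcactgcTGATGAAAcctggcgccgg
SLC38A1: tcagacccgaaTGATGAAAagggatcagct
SLC1A3: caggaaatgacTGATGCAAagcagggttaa
They lie at chr2:64989381-64989410 (plus strand), chr19:46784893-46784922 (minus), chr11:62881719-62881748 (plus), chr13:29595663-29595692 (minus), chr12:46266502-46266531 (minus) and chr5:36596357-36596386 (plus), in the order shown. Relative to the start the match begins at base -7 in SLC1A4, -97 in SLC1A5, -4 in SLC38A1 and -220 in SLC1A3, and at base 38 in SLC3A2 and 8 in SLC7A1. RefSeq windows were found for 42 of the 56 genes, 64 windows in all, and 6 of the 64 held TGATGNAA, against 3.62% of all 35116 windows. SLC7A11 and SLC6A6 were among the genes without a window, so their promoters were not searched. TGANTCA, with any middle base, was in 11 of the 64 (7.71% of all) and GTCTAGAC in 0 of the 64 (0.202% of all). No match of TGATGNAA shared a base with one of TGANTCA in these windows. None of the 6 genes passed the test in either fit.

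Among the 8 light chains 1 rose, SLC7A5, none fell and 7 did not pass, in both fits. Over all genes 0.354% passed as higher without the block and 1.39% with it. The median of the light chains was 0.10, against 0.01 over all genes. SLC7A6 (9057) encodes y+LAT2, which exchanges cationic for neutral amino acids. Its signal was 7.40, 7.76, 7.79 and 8.05 untreated and 8.20, 8.17, 8.08 and 8.23 treated, for A to D. The treated arrays lay close together above all untreated ones, and untreated A was the lowest. The log2 fold change was 0.42 ± 0.13 SE (interval 0.14 to 0.71, adjusted p = 0.291; 0.0676 with the block). All 3 of its probe sets had this direction, at 0.42, 0.48 and 0.60, and over all probe sets the one at 0.60 had an adjusted p of 0.0732 (0.0157 with the block) and the one at 0.48 had 0.442 (0.0359 with the block). The gene itself was tested by the probe set at 0.42. Pair A differed most (0.80). Without treated replicate A the difference was 0.41, without untreated replicate A 0.30, and in the block fit without letter A 0.29.

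SLC7A11 (23657) encodes xCT, the exchanger that brings in cystine for glutathione synthesis in return for glutamate. It had 9.40, 10.06, 9.75 and 9.65 untreated and 9.30, 9.82, 9.002 and 9.18 treated. Each treated array was below the untreated one of its letter, but the groups overlapped, and both arrays of letter B were the highest of their groups. The log2 fold change was -0.39 ± 0.18 SE (interval -0.80 to 0.02, adjusted p = 0.653; 0.096 with the block), and all 3 probe sets were negative, at -0.39, -0.40 and -0.24. Without letter A it passed in the block fit (adjusted p = 0.019), and without B, C or D it did not.

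The other light chains did not pass in either fit. SLC7A7 (y+LAT1) and SLC7A8 (LAT2) had 0.10 (interval -0.12 to 0.32) and 0.10 (-0.11 to 0.30), the latter with 5 of 5 probe sets in that direction. SLC7A9, the light chain of cystine reabsorption in kidney, had 0.26, SLC7A10 0.04 and SLC7A13 -0.14, all 3 in the lower 40% of signals. The heavy chain SLC3A2 (6520), also called CD98, is the partner of SLC7A5, SLC7A6, SLC7A7, SLC7A8, SLC7A10 and SLC7A11. Its signal was 9.04, 9.13, 9.41 and 9.50 untreated and 9.22, 9.23, 9.65 and 9.56 treated. It was a little higher in each of the 4 pairs, by 0.06 to 0.24, while letters C and D lay above A and B in both groups. The log2 fold change was 0.15 ± 0.14 SE (interval -0.16 to 0.46, adjusted p = 0.885; 0.448 with the block). SLC3A1, the heavy chain that pairs with SLC7A9, had -0.09 at low signal.

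Of the 5 cationic carriers, which take up arginine and lysine or are related to those that do, none passed in either fit by limma. An unadjusted p under 0.05 was found for 1 of the 5 (8.14% of all genes). SLC7A1 (6541) encodes CAT1, the main carrier of arginine in many cells. It had 10.28, 10.24, 10.09 and 10.33 untreated and 10.71, 10.52, 10.43 and 10.43 treated. All treated arrays were above all untreated ones, with treated A the highest. The log2 fold change was 0.29 ± 0.10 SE (interval 0.07 to 0.51, adjusted p = 0.403; 0.127 with the block), and 0.23 without treated replicate A. Of its 5 probe sets 4 had this direction, at 0.29, 0.63, 0.33 and 0.12, and the other was at -0.07. SLC7A2 (6542), a cationic carrier known from liver and macrophages, varied most among all 56 genes within groups (pooled SD 0.72). Both arrays of letter A were the highest of their groups, at 6.91 untreated and 7.57 treated, against 5.78 to 6.20 and 5.60 to 6.18 for the other letters. Its fold change of 0.01 had an interval of -0.86 to 0.88, and with 1 array left out it ran from -0.42 (without treated A) to 0.24 (without treated C). SLC7A3, SLC7A4 and SLC7A14 had 0.03, 0.03 and 0.10, in the lower 40% of signals.

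**Figure D3:**
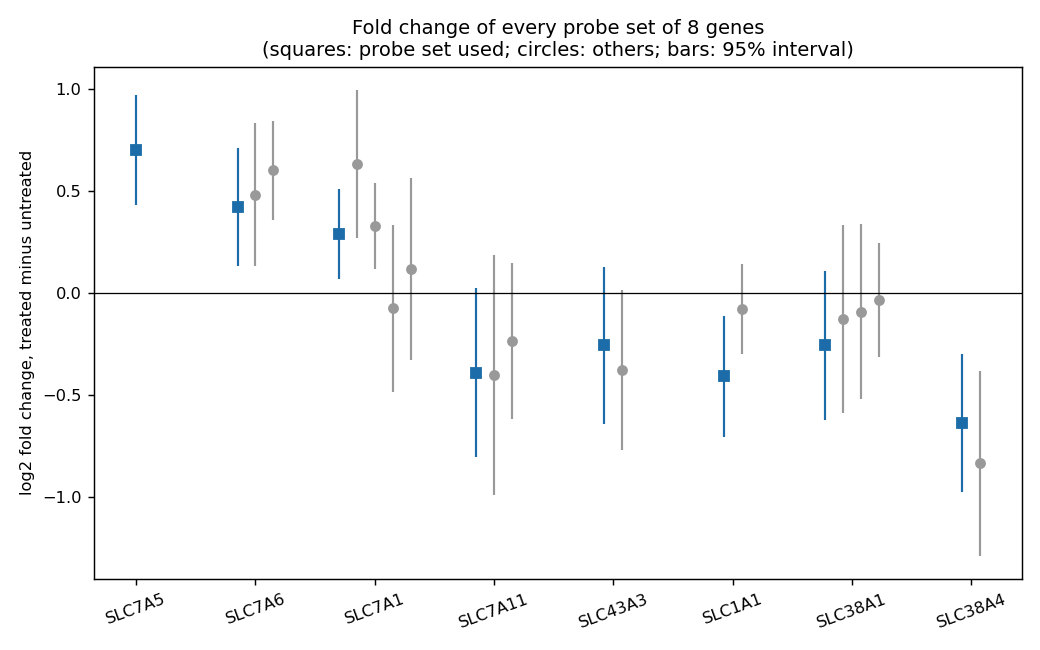
Log2 fold change (y axis, treated minus untreated) of every probe set of 8 transporter genes, with 95% intervals from a limma fit over all probe sets; squares mark the probe set that stood for the gene. All probe sets of SLC7A6 lie above 0 and all of SLC7A11, SLC43A3, SLC1A1, SLC38A1 and SLC38A4 below 0, while 1 of the 5 of SLC7A1 lies below 0.

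In the SLC1 family none of 7 genes passed in either limma fit. An unadjusted p under 0.05 was found for 1 of the 7, SLC1A1 (8.14% of all genes). SLC1A5 (6510) encodes ASCT2, a glutamine exchanger. It had 9.45, 9.18, 9.15 and 9.26 untreated and 9.35, 9.16, 9.34 and 9.20 treated, with full overlap, and a log2 fold change of 0.00 ± 0.10 SE whose interval of -0.21 to 0.22 bounds the difference. SLC1A4 (6509), the related ASCT1 exchanger of serine and alanine, had 0.03 ± 0.15 SE (interval -0.29 to 0.36), and 3 of its 5 probe sets had that direction. SLC1A1 (6505) encodes EAAT3, a sodium-coupled carrier of glutamate and cysteine. Its signal was 6.47, 6.77, 6.66 and 6.39 untreated and 6.41, 6.30, 6.01 and 5.93 treated. Treated A alone reached into the untreated range, and pair A differed by only -0.05, against -0.47, -0.65 and -0.46 for B, C and D. The log2 fold change was -0.41 ± 0.13 SE (interval -0.70 to -0.11, adjusted p = 0.351; 0.0676 with the block), and -0.49 without treated replicate A (adjusted p = 0.167). In the block fit without letter A it passed (adjusted p = 0.00563). Its second probe set had -0.08. The glial glutamate carriers SLC1A2 and SLC1A3 had 0.07 and -0.16, and SLC1A6 and SLC1A7, known from cerebellum and retina, had 0.00 and 0.06. Other probe sets differed from these values, at -0.40 for SLC1A3, and at -0.45 (interval -0.88 to -0.01) and 0.04 for SLC1A7. None of these passed in either fit over all probe sets.

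Of the 10 genes on the list of SLC38 sodium-coupled carriers none passed without the block. An unadjusted limma p under 0.05 was found for 1 of the 10 (8.14% of all genes). With the block 1 fell, where 2.18% of all genes passed as lower. That gene was SLC38A4 (55089), which encodes SNAT4, a carrier of neutral and cationic amino acids best known from liver. It had 5.14, 4.92, 5.12 and 4.92 untreated and 4.71, 4.61, 4.03 and 4.21 treated. Every treated array was below every untreated one, with C and D lowest. The means were 5.02 ± 0.12 and 4.39 ± 0.32 (SD over the 4 arrays of a group), 1.55-fold lower under treatment (log2 fold change -0.64 ± 0.15 SE, interval -0.97 to -0.30, limma adjusted p = 0.126; 0.0189 with the block). Its second probe set was lower too, at -0.83, and with the mean of both probe sets the difference was -0.73 and passed without the block (adjusted p = 0.019). Its mean signal of 4.70 lay in the lower 40%, so the upper 60% of signals does not include it. Without treated replicate A it passed (-0.74, adjusted p = 0.0429), and without each of the other 7 arrays it did not (adjusted p up to 0.398). In the block fit the call was lost without letter C (adjusted p = 0.0843) or letter D (0.0752).

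**Figure D4:**
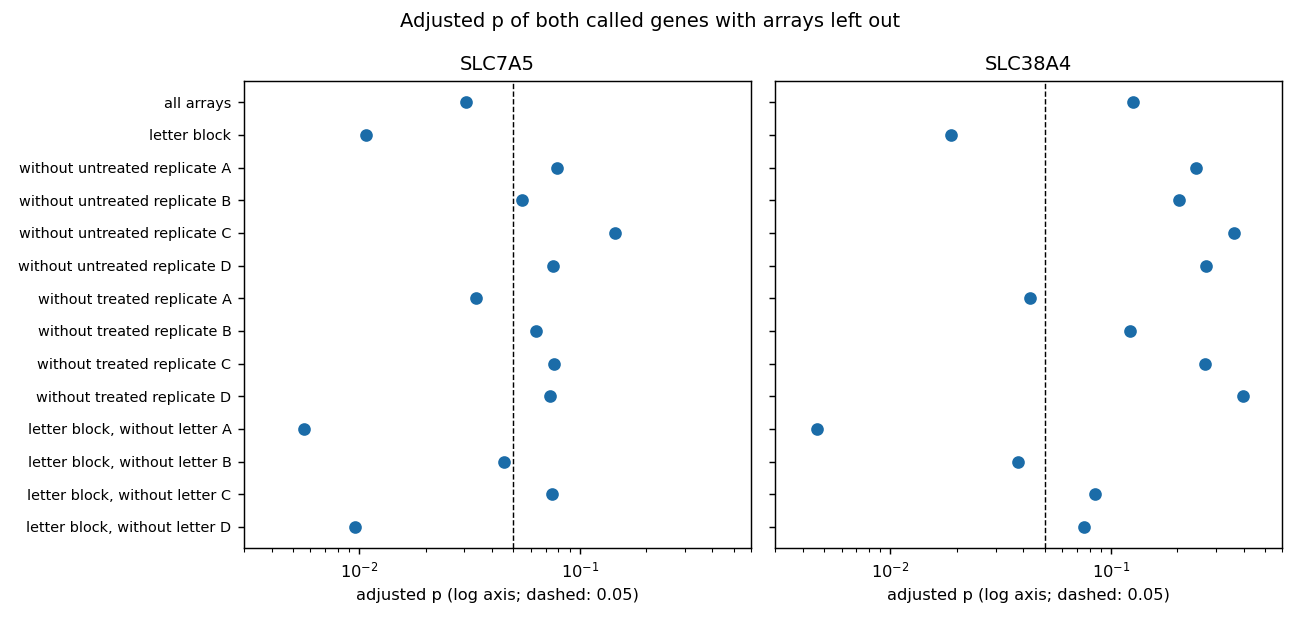
Adjusted p (x axis, log scale) of SLC7A5 and SLC38A4 in limma fits over all genes, with all arrays, with the letter as a block, and with each array or letter left out; the dashed line marks 0.05. SLC7A5 passes with all arrays (0.0304) and SLC38A4 only with the block (0.0189), without treated replicate A or in block fits without letter A or B.

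SLC38A2 (54407) encodes SNAT2, the carrier that amino acid starvation induces. It had 12.20, 12.52, 12.13 and 12.14 untreated and 12.33, 12.56, 12.02 and 12.12 treated. The groups overlapped fully and letter B was the highest in both (log2 fold change 0.01 ± 0.14 SE, interval -0.30 to 0.31), and its 3 probe sets lay between -0.02 and 0.02. SLC38A1 (81539), a glutamine carrier, had 10.60, 11.03, 10.71 and 10.83 untreated and 10.50, 11.01, 10.23 and 10.41 treated. It was lower in all 4 pairs, with differences of -0.10, -0.015, -0.48 and -0.42 for A to D, and the groups overlapped (log2 fold change -0.26 ± 0.16 SE, interval -0.62 to 0.11, adjusted p = 0.796; 0.255 with the block). The other 3 probe sets had -0.13, -0.09 and -0.03, and the mean of all 4 gave -0.13. With 1 array left out the difference ran from -0.41 (without treated B) to -0.15 (without treated C).

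SLC38A9 (153129), the lysosomal carrier that reports arginine to mTORC1, had 0.05 ± 0.14 SE (interval -0.25 to 0.35), and its second probe set was at -0.28. The other SLC38 genes were SLC38A3 (0.19) and SLC38A5 (0.24), both glutamine carriers of system N, SLC38A6 (-0.04), SLC38A7 (-0.03), a lysosomal glutamine carrier, SLC38A10 (-0.01, with 2 of 7 probe sets in that direction) and SLC38A11 (0.03). SLC38A12, called TMEM104 before, was on no role list and had -0.03.

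The SLC43 genes encode carriers without sodium coupling, and none of the 3 passed in either limma fit. An unadjusted p under 0.05 was found for 1 of the 3 (8.14% of all genes). SLC43A1 (8501), also called LAT3, takes up leucine and other large neutral amino acids, as SLC7A5 does. It had 6.64, 6.41, 6.28 and 6.63 untreated and 6.39, 6.01, 6.15 and 6.20 treated. Each treated array was below the untreated one of its letter, with overlap between the groups (log2 fold change -0.30 ± 0.12 SE, interval -0.56 to -0.04, adjusted p = 0.501; 0.108 with the block). SLC43A3, a purine base transporter, had 10.13, 9.56, 9.86 and 9.98 untreated and 9.95, 9.18, 9.71 and 9.67 treated, lower in all 4 pairs (-0.26 ± 0.17 SE, adjusted p = 0.809; 0.158 with the block), with both probe sets negative. SLC43A2, LAT4, had 0.17 (interval -0.10 to 0.45). The proton-coupled carriers SLC36A1 (206358), an exporter of small amino acids from lysosomes, and SLC36A4 had 0.01 (interval -0.31 to 0.33) and -0.01 (-0.22 to 0.21). SLC36A2, SLC36A3 and SLC38A8 were not analysed here.

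None of the 18 SLC6 genes passed in either fit by limma, and none had an unadjusted p under 0.05 (8.14% of all genes). The 9 that carry amino acids such as glycine and proline had differences between -0.18 and 0.15 with a median of 0.12, and 5 of the 9 lay in the lower 40% of signals. Among them SLC6A18, known from kidney, had groups that did not overlap, at 4.45 to 4.62 untreated and 4.65 to 4.73 treated. That difference was 0.15 ± 0.08 SE (adjusted p = 0.735) at a signal that may be background. SLC6A9, the glycine carrier GLYT1, had 5.02 on treated A against 5.60 to 6.12 on the other 7 arrays, and a difference of -0.18 ± 0.22 SE that turned to 0.06 without treated replicate A. SLC6A14, SLC6A15, SLC6A5, SLC6A17, SLC6A19, SLC6A20 and SLC6A7 had 0.04, 0.12, 0.12, 0.12, 0.12, 0.13 and -0.03.

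The other 9 SLC6 genes carry transmitters, taurine, betaine or creatine, or have no settled substrate. SLC6A6 (6533), the taurine carrier, had 9.58, 9.78, 9.59 and 9.72 untreated and 9.43, 9.66, 9.69 and 9.81 treated, in overlapping groups (log2 fold change -0.02 ± 0.10 SE, interval -0.25 to 0.21). SLC6A8, the creatine carrier, had 0.05, and its copies SLC6A10P and SLC6A10PB are named together with it by other probe sets of the array, so its value is uncertain. SLC6A2, SLC6A3, SLC6A4, SLC6A11, SLC6A12, SLC6A13 and SLC6A16 had differences between -0.05 and 0.10.

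Genes of the amino acid response and of amino acid use were read from the same fits. Of all genes 0.576% passed without the block and 3.57% with it, and 8.14% had an unadjusted p under 0.05. Of 19 measured genes of the ATF4 response none passed in either limma fit, 1 had an unadjusted p under 0.05, and the median was 0.01. ATF4 itself had 0.01 (interval -0.19 to 0.21) and its target ASNS, asparagine synthetase, 0.01 (-0.39 to 0.41). None of 17 aminoacyl-tRNA synthetases passed in either fit, none had an unadjusted p under 0.05, and the median was -0.01 with a range of -0.15 to 0.07. Of 18 genes of amino acid synthesis and glutamine use none passed, and 1 had an unadjusted p under 0.05. Among 22 other carriers of amino acids and peptides, mitochondrial ones included, none passed, 2 had an unadjusted p under 0.05, and 16 of the 22 had a negative difference, as did 9313 of all 19775 genes.

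Of 16 genes of glutathione and cystine use 1 rose and 15 did not pass, in both fits. Over all genes 0.576% passed without the block and 3.57% with it. The gene that rose was HMOX1, heme oxygenase, which had 6.67, 6.999, 6.76 and 6.70 untreated and 7.33, 8.18, 8.17 and 8.01 treated. All treated arrays were above all untreated ones, with treated A the lowest of its group. The log2 fold change was 1.14 ± 0.18 SE (adjusted p = 0.0201; 0.000501 with the block). When single arrays were left out HMOX1 passed in 2 of 8 fits, and its highest adjusted p was 0.0922, without untreated replicate C. It passed in all 4 block fits without a letter. Of 24 genes that sense amino acids for mTORC1 none passed without the block, and 2 had an unadjusted p under 0.05 (8.14% of all genes). With the block 1 fell. That gene was SESN3, a sestrin, which had 4.59, 5.94, 5.46 and 5.33 untreated and 4.08, 5.08, 4.90 and 4.85 treated. Each treated array lay below its letter's untreated one, with overlap between groups (-0.60 ± 0.28 SE, adjusted p = 0.636; 0.00547 with the block), but with the mean of its 7 probe sets the difference was only -0.12. SESN2, a leucine sensor that ATF4 also induces, had 0.49 ± 0.15 SE (adjusted p = 0.268; 0.0866 with the block).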

How the data were processed

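The values were deposited as log2 RMA signals, 1 per probe set and array. The authors ran RMA (background adjustment, quantile scaling across arrays and 1 summary per probe set), per the submitters' processing notes. Neither its version nor the set of arrays it was run on is stated in those notes, and the log base was inferred from values of 1.68 to 13.92. Of 54675 probe sets 62 Affymetrix controls were left out. Platform annotation of the array named 1 gene for 41091 of the other 54613, several for 1801 and none for 11721. Tests used lmFit and eBayes of limma 3.58.1 (R 4.3.3; two-sided), with p-values adjusted by Benjamini-Hochberg over all 19775 genes. The block fit, an alternative to the fit without the letters, took the letters as pairing the arrays. No cutoff on the correlations between arrays decided whether it was run. The deviations of same-letter arrays from their group means correlated at 0.49, 0.69, 0.34 and 0.30 for A to D over genes. The labels do not state a pairing. Letters C and D are not told apart by this check, since untreated C with treated D had 0.33 and untreated D with treated C 0.31. The calls that the block adds among the genes named (SLC38A4, SESN3, SKIL, PLAU and PECAM1) rest on this pairing. Values without the block are given first, except for PLAU and PECAM1, whose adjusted p is given with the block only. Both fits were tested on simulated data. Promoter windows came from RefSeq (GRCh38.p14).

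The genes, role lists and pathway lists were chosen with earlier results of these data known. Genes described in full were those that passed in either fit, the 6 largest differences with an unadjusted p under 0.05, and 12 fixed transporters; from a pathway list, up to 5 genes that passed in either fit. SLC43A3, SLC7A2, SLC6A18, SLC6A9, SESN2, ATF4, ASNS and the markers CDH1, ERBB3, PLAU and PECAM1 were added after their values were seen. Of 156 symbols on the 12 other lists 145 were measured. Alternatives were the replicate block, a filter on low signals, 2 other scalings, another prior, other choices of probe sets, and arrays or letters left out. Python 3.11.15 and matplotlib 3.10.9 made the figures.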

Additional observations from a re-analysis of the deposited data

Results flagged for a closer look

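In groups of 4 arrays, 3 of the 112 transporter groups held a value far from the other 3 arrays, and about 1 in 20 groups is picked out in this way by chance. SLC6A5, a glycine carrier, had 4.46 on treated replicate D against 4.20 to 4.24 on the other treated arrays. SLC7A10, a light chain, had 4.11 on treated replicate A against 3.67 to 3.73. SLC7A13, another light chain, had 2.36 on treated replicate C against 2.19 to 2.21. All 3 genes lie in the lower 40% of signals and none passed a test.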

How the results depend on the processing

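The count of transporter genes that passed was 1 and moved to 2 with the replicate block and when all probe sets per gene were averaged, and to 0 of 45 tested when probe sets able to match more than 1 transcript or gene were dropped, where SLC7A5 has no probe set (limma; 4 unadjusted p under 0.05). It stayed at 1 with the upper 60% of signals, centring, quantile normalization again and a trended, robust prior. With arrays or letters left out it ranged from 0 to 4, and the 4 (block, without letter A) were SLC7A5, SLC38A4, SLC1A1 and SLC7A11. In the 8 fits at 0, 7 without 1 array and 1 block fit without letter C, 5 to 8 transporters had an unadjusted p under 0.05. The count over all genes was 114, 705 with the block, and 46 to 1304 with arrays or letters left out; it was 232 without treated replicate A, and in the block fits 288, 321 and 356 without letters B, C and D. The block changed no other transporter call than that of SLC38A4. No named transporter reversed a call. When limma was run over all probe sets instead of genes, the SLC7A5 probe set did not pass without the block (adjusted p = 0.057). Low signals limit 19 of the 56 genes, since differences near background can be understated.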
